A study of Homo sapiens with 20 samples.

Results

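Genes of fatty acid oxidation and targets of the peroxisome proliferator-activated receptors (PPARs) were followed in Caco-2, an established line from a human colon carcinoma that serves as a model of the enterocyte, after contact with live probiotic bacteria or with the cell-free supernatants of bacterial cultures. The members were 35 gene symbols chosen by name for their function, with earlier results of these data known. A probe set carried the symbol for 34 of them, 62 probe sets in all, out of 19775 genes named by the platform annotation and 54675 probe sets. ACSL3 was not analysed here. The 20 arrays formed 9 groups. In the probiotic set, cells were kept for 8 h with living bacteria of 1 strain, 20 to 100 of them for each epithelial cell (2 arrays per strain). The strains were NCFM (Lactobacillus acidophilus), 420 (Bifidobacterium lactis, written B. lactis 420) and Ls-33 (Lactobacillus salivarius). In the same set, supernatant of these strains was applied at 10% for 24 h (2 arrays each), and cells in medium alone were taken at 8 h (2 arrays). In the Escherichia coli set, supernatant of the enterohaemorrhagic strain O157:H7 was applied at 5% for 24 h (3 arrays) and cells in medium alone were taken at 24 h (3 arrays). Every group used cells differentiated on inserts with a short protocol of 5 days, and the bacteria were grown in broth with added glucose, MRS for the probiotics and LB for E. coli. No group given broth alone was analysed here, so what the broth itself did cannot be told apart from bacterial products. The probiotic supernatants have only the 8 h medium in their own set, so in those comparisons time and treatment cannot be told apart. The series text speaks of duplicates and single replicas without saying that they were separate cultures, and p-values then measure only the spread between these arrays, which may be technical.

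Mitochondrial beta-oxidation shortens fatty acids by acetyl-CoA units and feeds electrons to the respiratory chain. Fatty acids are first activated to acyl-CoA, carried into mitochondria as carnitine esters, and then passed through rounds of dehydrogenation, hydration, a further dehydrogenation and thiolysis, while peroxisomes shorten the chains that mitochondria handle poorly. PPARs are nuclear receptors that bind fatty acids and, paired with a retinoid X receptor, switch on many of these genes, and in enterocytes the pathway meets the large load of dietary fat.

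Values are log2 signals, so a difference of 1 is a doubling, and levels of different genes are not compared because each probe set has its own brightness. A gene was read from 1 probe set, tested where its mean reached a floor of 2.74 (probiotic set) or 2.78 (E. coli set), and called where limma's p, adjusted over all 11865 genes tested in that set, was under 0.05. ACADL, the long-chain dehydrogenase, stayed under the floor in both sets (1.36 to 2.05 over all arrays) and PDK4 in the probiotic set, which left 32 and 33 members tested. Replicate arrays of a group correlated at 0.994 to 0.997 over all probe sets. All 10 epithelial markers checked were at or above the floor in the median array. Of 17 markers of other cell types, 7 reached it in the median array, namely CD14 and LYZ (leukocytes), COL1A1, PDGFRB and LUM (fibroblasts), PECAM1 (endothelium) and MB (muscle). PTPRC, CD3E, VWF, ADIPOQ, LEP, PLIN1, CKM and MYH7 were under it in all 20 arrays. The summed log2 signal of 4 fibroblast markers was 26.4 to 26.7 with E. coli supernatant, against 28.9 to 29.4 in 24 h medium. That of 3 endothelial markers was 11.6 to 12.3 with E. coli supernatant, against 12.9 to 13.3, and that of 3 muscle markers 7.56 to 8.18, against 8.91 to 9.17. In the probiotic set the muscle sum was 10.6 to 11.2 with NCFM cells, against 9.83 to 10.2 in 8 h medium. The endothelial sum was 13.19 to 13.40 with NCFM cells, 13.01 to 13.47 with B. lactis 420 cells and 12.92 to 12.99 with Ls-33 cells. It was 13.53 to 13.63 in 8 h medium. A sum of 10 epithelial markers was 109.46 to 109.53 with B. lactis 420 cells and 109.84 to 110.37 with Ls-33 cells. It was 108.26 to 108.54 with NCFM cells and 108.29 to 108.80 in 8 h medium. With E. coli supernatant it was 104.42 to 105.16, against 103.54 to 104.33 in 24 h medium. The sum of 4 leukocyte markers was 13.99 to 14.2 with NCFM cells and 16.5 to 16.6 with Ls-33 cells, against 14.7 to 16.1 in 8 h medium. The 3′ minus 5′ signal of actin, which grows as RNA is shorter, was 1.08 to 1.54 with live bacteria and 1.02 to 1.11 with probiotic supernatants, against 0.80 to 0.88 in 8 h medium. It was 2.12 to 2.22 with E. coli supernatant, against 1.90 to 2.17 in 24 h medium. The same difference of GAPDH was 0.246 to 0.337 with E. coli supernatant, against 0.117 to 0.223 in 24 h medium, and 0.101 to 0.106 with NCFM cells, against -0.0352 to 0.0204 in 8 h medium. The part of these shifts in the results below was not tested, and other marker sums are not given here.

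Promoters are shown for 3 members whose values recur below. The windows run from 250 bases before to 50 bases after the gene start (RefSeq, GRCh38.p14), 5′ to 3′ on the gene's strand, and 27 of the 34 measured members had at least 1. PPARs bind direct repeats of AGGTCA spaced by 1 base. The exact repeat AGGTCANAGGTCA, read on both strands, was in none of the 27 members' windows and in 0.0228% of 35116 promoters. With 1 free base in each AGGTCA unit (AGGNCANAGGNCA), CREB3L3 alone among the members held a match, at positions -222 to -210 before the start, and 0.31% of all promoters held one. It overlaps the only single AGGTCA among the members, which 13.8% of promoters hold. The window is chr19:4153381-4153680 on the plus strand, with the match in capitals.
CREB3L3: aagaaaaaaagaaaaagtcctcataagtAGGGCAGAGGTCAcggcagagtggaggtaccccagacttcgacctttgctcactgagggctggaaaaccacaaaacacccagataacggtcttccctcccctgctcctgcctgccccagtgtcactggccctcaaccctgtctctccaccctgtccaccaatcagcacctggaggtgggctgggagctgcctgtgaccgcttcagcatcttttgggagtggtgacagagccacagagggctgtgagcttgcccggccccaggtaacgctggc
PLIN2 is shown because, on the probe set read for it, it fell with NCFM and B. lactis 420 cells and rose with all probiotic supernatants. Its window, chr9:19127443-19127742 on the minus strand, held 3 matches to ACGTG, the core bound by hypoxia-inducible and related factors, on both strands (capitals), of which an overlapping pair forms CACGTG. The core ACGTG was in 6 members' windows and in 21.4% of promoters, and CACGTG in PLIN2 alone among the members and in 7.26% of promoters.
PLIN2: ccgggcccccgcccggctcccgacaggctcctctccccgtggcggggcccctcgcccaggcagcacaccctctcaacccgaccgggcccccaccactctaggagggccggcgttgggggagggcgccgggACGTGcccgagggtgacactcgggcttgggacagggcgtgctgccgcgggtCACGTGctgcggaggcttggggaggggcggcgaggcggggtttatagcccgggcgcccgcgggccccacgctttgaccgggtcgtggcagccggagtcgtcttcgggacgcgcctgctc
HADHA and HADHB, the subunits of the mitochondrial trifunctional protein, lie head to head on opposite strands. The HADHB window, chr2:26244689-26244988 on the plus strand, shares its first 194 bases (capitals) with the HADHA window, chr2:26244583-26244882 on the minus strand.
HADHB: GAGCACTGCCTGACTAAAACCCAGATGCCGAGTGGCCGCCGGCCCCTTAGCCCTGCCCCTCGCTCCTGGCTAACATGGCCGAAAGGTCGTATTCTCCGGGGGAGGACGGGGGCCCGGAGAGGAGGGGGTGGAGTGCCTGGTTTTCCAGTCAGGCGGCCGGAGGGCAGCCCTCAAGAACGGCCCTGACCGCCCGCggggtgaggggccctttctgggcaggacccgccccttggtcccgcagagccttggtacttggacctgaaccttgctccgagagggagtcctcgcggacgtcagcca
These matches describe letters in a window and not sites in use.

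With live bacteria, the members that changed were mostly lower than in 8 h medium. Of 32 tested, 9 were lower and 1 higher with NCFM cells, 9 lower and 0 higher with B. lactis 420 cells, and 10 lower and 2 higher with Ls-33 cells. Over all genes tested, 18.4% were called lower and 16.8% higher with NCFM cells, 16.9% and 18.3% with B. lactis 420 cells, and 19.3% and 19.4% with Ls-33 cells. In either direction the background was 35.3%, 35.3% and 38.7%, so the total of called members was near or under that of all genes and their direction was uneven. The count of 0 higher with B. lactis 420 cells is limma's, and 16 members had an unadjusted p under 0.05 there in either direction. The share of all genes at that unadjusted threshold is not given here, so nothing is read from the 16. The members' median log2 change was -0.13, -0.17 and -0.18, against -0.0060, 0.0087 and -0.0079 for all genes. CREB3L3, CRAT, ACOT8, ETFA and HADHB were called lower with each of the 3 strains, against the same medium arrays, though a second ACOT8 probe set went the other way. In bulk RNA, fewer cells of a kind and less RNA per cell cannot be told apart. The count with NCFM cells was 6 without the second medium array, and after quantile normalization of the 20 arrays together it split into 7 lower and 3 higher.

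**Figure D1:**
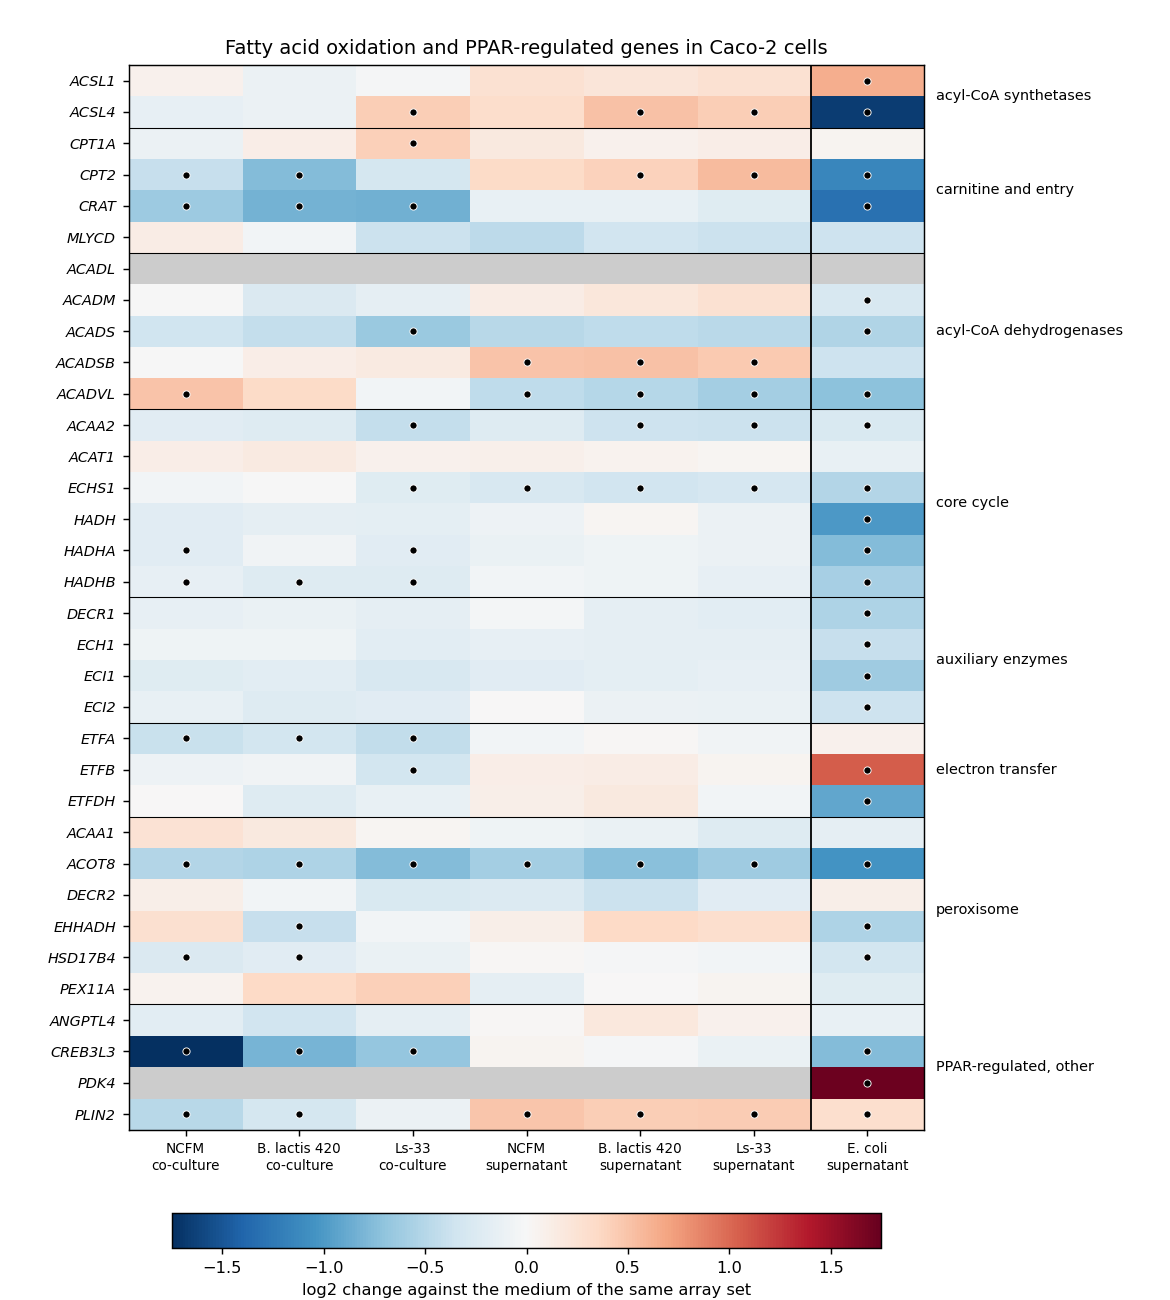
Log2 change of each member (rows, grouped by role) in the 7 comparisons with a medium (columns); blue is lower and red higher in the treated cells, dots mark calls at limma adjusted p under 0.05, and grey marks members under the floor. The E. coli column holds 20 lower and 4 higher calls, and all 3 co-culture columns hold dots on blue at CREB3L3, CRAT, ACOT8, ETFA and HADHB.

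**Figure D2:**
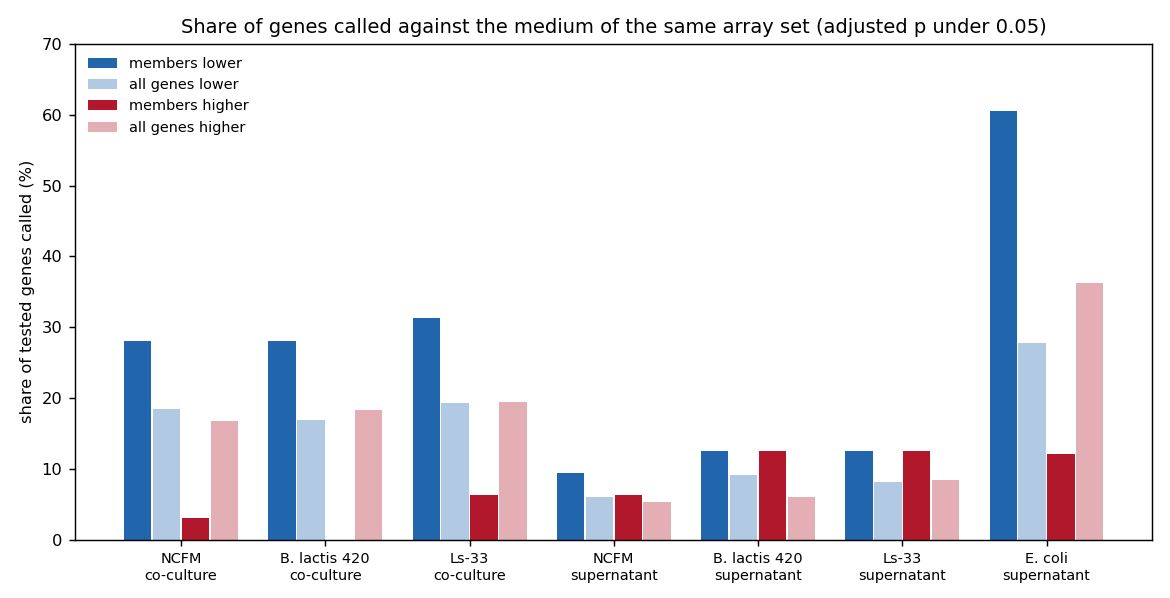
Percent of members and percent of all genes tested that were called lower or higher in each of the 7 comparisons with a medium. With live bacteria and with E. coli supernatant more members were called lower than higher, while all genes split more evenly (for NCFM cells 18.4% lower and 16.8% higher).

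Among the PPAR-regulated genes, CREB3L3 encodes a membrane-bound transcription factor of liver and intestine that acts with PPARα in the fasting response of mice. Its signal was 6.12 and 5.95 with NCFM cells, 7.13 and 6.79 with B. lactis 420 cells and 7.13 and 7.07 with Ls-33 cells, against 7.66 and 7.90 in 8 h medium. Every co-culture array lay below the medium arrays, and the NCFM pair was the lowest. The log2 changes were -1.74 ± 0.14 (SE here and below), -0.82 ± 0.14 and -0.68 ± 0.14 in that order of strains (limma adjusted p 1.62e-08, 0.000189 and 0.000896), or 3.35-fold, 1.76-fold and 1.60-fold lower, and stayed called in all 12 alternative analyses of each. PLIN2 coats lipid droplets. It gave 11.25 and 11.16 with NCFM cells, 11.42 and 11.35 with B. lactis 420 cells and 11.59 and 11.56 with Ls-33 cells, against 11.68 and 11.70 in 8 h medium. Again no co-culture array reached the medium, and the gap was smallest with Ls-33 cells. PLIN2 fell with NCFM cells (-0.49 ± 0.05, limma adjusted p 1.07e-07) and with B. lactis 420 cells (-0.31, 3.31e-05), and its change with Ls-33 cells was -0.11 (adjusted p 0.0665). The second PLIN2 probe set read 0.42, 0.33 and 0.36 above medium without a call, and the mean of both sets ended the NCFM call (-0.03, adjusted p 0.826) and turned the B. lactis 420 value to 0.01.

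ANGPTL4, a secreted inhibitor of lipoprotein lipase, was near the floor. It read 3.03 and 2.83 with NCFM cells, 2.87 and 2.68 with B. lactis 420 cells and 3.06 and 2.84 with Ls-33 cells, against 2.99 and 3.23 in 8 h medium. The NCFM and Ls-33 arrays overlapped the medium arrays, and limma gave no call (adjusted p 0.414, 0.113 and 0.478). PDK4, the kinase that turns off pyruvate dehydrogenase and so spares glucose, was not tested in this set. Its signal was 2.59 and 3.24 with NCFM cells, 2.45 and 2.66 with B. lactis 420 cells and 2.71 and 2.32 with Ls-33 cells, against 2.58 and 2.56 in 8 h medium, all close to or under the floor.

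**Figure D3:**
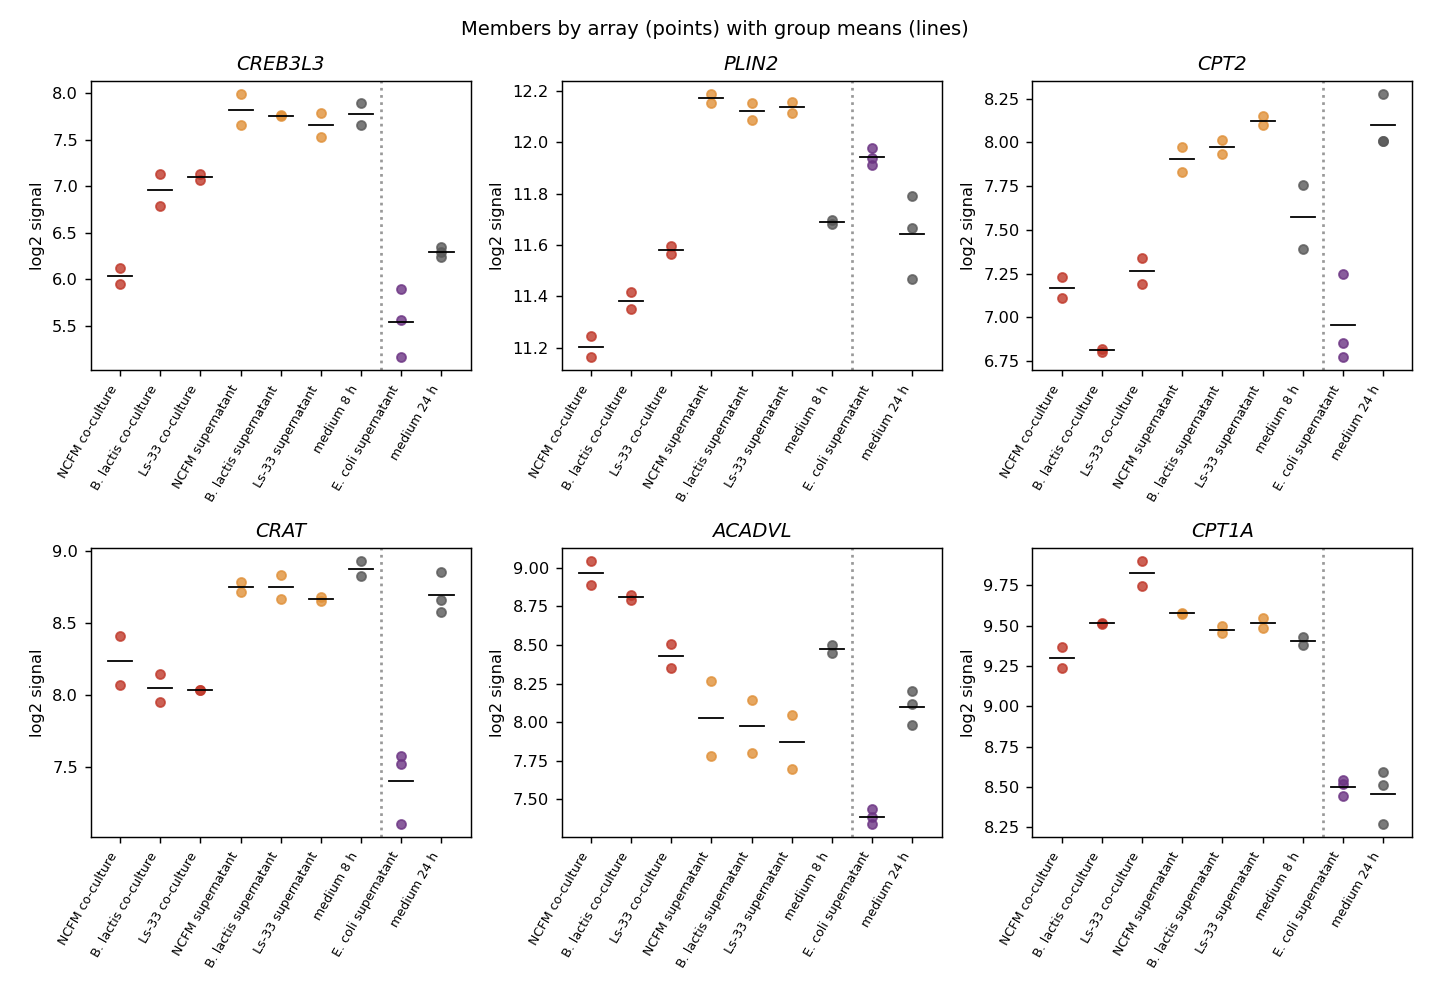
Log2 signal in each array (points) with the group mean (line) for CREB3L3, PLIN2, CPT2, CRAT, ACADVL and CPT1A, treated groups left of the medium of their set. CREB3L3 with NCFM cells sits at 5.95 and 6.12. PLIN2, on the probe set read for it, lies above the 8 h medium with every probiotic supernatant and below it with every live strain.

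Fatty acid activation and entry moved unevenly. ACSL4, an acyl-CoA synthetase that favours arachidonic acid, was 7.75 and 8.19 with NCFM cells, 7.82 and 8.20 with B. lactis 420 cells and 8.57 and 8.51 with Ls-33 cells, against 8.15 and 8.07 in 8 h medium. Only the Ls-33 pair stood clear of the medium (0.43 ± 0.13, limma adjusted p 0.0136), and that call ended without the second medium array (adjusted p 0.085) or the first Ls-33 array (0.0826). ACSL1 was not called with any live strain. CPT1A is the outer-membrane carnitine palmitoyltransferase, the entry step that malonyl-CoA inhibits. Its arrays read 9.37 and 9.24 with NCFM cells, 9.52 and 9.51 with B. lactis 420 cells and 9.75 and 9.90 with Ls-33 cells, against 9.43 and 9.38 in 8 h medium. NCFM arrays lay below the medium and the others above it, and only Ls-33 passed the test (0.42 ± 0.07, adjusted p 0.000115), against -0.10 (0.279) and 0.11 (0.255) with NCFM and B. lactis 420 cells. The mean of its 4 probe sets ended the Ls-33 call (0.18, adjusted p 0.24), and the other 3 probe sets were each called lower with NCFM cells, by -0.91, -0.76 and -0.62.

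CPT2 releases acyl-CoA from carnitine inside the mitochondrion. Its signal was 7.11 and 7.23 with NCFM cells, 6.82 and 6.80 with B. lactis 420 cells and 7.34 and 7.19 with Ls-33 cells, against 7.75 and 7.39 in 8 h medium. All co-culture arrays were below the medium, with B. lactis 420 lowest, and the changes were -0.40 ± 0.12 (limma adjusted p 0.0137), -0.76 (6.44e-05) and -0.31 (0.0517). The NCFM call ended without the first medium array (0.235) or the first NCFM array (0.0814), while a second CPT2 probe set was called lower with all strains (-1.41, -1.16 and -1.09). CRAT, the carnitine acetyltransferase of mitochondria and peroxisomes, was 8.41 and 8.07 with NCFM cells, 7.95 and 8.14 with B. lactis 420 cells and 8.03 and 8.03 with Ls-33 cells, against 8.83 and 8.93 in 8 h medium. The groups did not overlap, and CRAT fell by 0.64, 0.83 and 0.85 on the log2 scale (SE 0.11 each, adjusted p 9.93e-05, 5.02e-06 and 3.27e-06), a call kept in all 12 alternatives of each strain. MLYCD, which breaks down malonyl-CoA, was not called.

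Of the acyl-CoA dehydrogenases, which take the first step of each round, ACADVL acts on very long chains. It was 9.04 and 8.89 with NCFM cells, 8.79 and 8.83 with B. lactis 420 cells and 8.35 and 8.51 with Ls-33 cells, against 8.50 and 8.44 in 8 h medium. NCFM and B. lactis 420 arrays were above the medium and the Ls-33 pair straddled it. The change was 0.50 ± 0.14 with NCFM cells (limma adjusted p 0.0102), the single higher call there, 0.34 for B. lactis 420 (0.0716) and -0.04 for Ls-33 (0.836). The NCFM call ended without the second medium array (0.0631) or the first NCFM array (0.0753). ACADS, the short-chain enzyme, was 4.15 and 4.17 with NCFM cells, 3.89 and 4.30 with B. lactis 420 cells and 3.79 and 3.92 with Ls-33 cells, against 4.47 and 4.55 in 8 h medium. All 6 co-culture arrays were lower, and the Ls-33 change passed (-0.65 ± 0.17, adjusted p 0.00504). ACADM, the medium-chain enzyme, was 9.44 and 9.92 with NCFM cells, 9.30 and 9.54 with B. lactis 420 cells and 9.57 and 9.47 with Ls-33 cells, against 9.67 and 9.69 in 8 h medium. NCFM arrays lay on both sides of the medium, and no strain passed.

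In the later steps of the round, HADHB, which carries the thiolase of the trifunctional protein, was called lower with all strains by small amounts (-0.14, -0.22 and -0.22, limma adjusted p 0.0405, 0.00257 and 0.00191). Whether these calls hold under the alternative analyses is not given here for HADHB. Its partner HADHA, with the hydratase and dehydrogenase activities, was 10.38 and 10.28 with NCFM cells, 10.44 and 10.48 with B. lactis 420 cells and 10.32 and 10.32 with Ls-33 cells, against 10.49 and 10.56 in 8 h medium. Every co-culture array was below the medium by little. HADHA was called lower with NCFM cells (-0.20 ± 0.06, adjusted p 0.0105) and Ls-33 cells (-0.20, 0.00782), with -0.06 (0.408) for B. lactis 420 cells. The NCFM call ended without the second medium array (0.0922) or the second NCFM array (0.0994), without a variance trend (0.0562), with only the groups compared in the fit (0.0633) and after joint quantile normalization (-0.11, 0.123). The Ls-33 call ended without the second medium array (0.076) and with the mean of the HADHA probe sets (-0.11, 0.218). ECHS1, the short-chain enoyl-CoA hydratase, and ACAA2, the mitochondrial thiolase, fell with Ls-33 cells (-0.22 and -0.42, adjusted p 0.00401 and 0.000807). HADH and ACAT1 were not called. The auxiliary enzymes for unsaturated chains (ECI1, ECI2, ECH1 and DECR1) gave limma calls in 0 of 4 with each strain. At an unadjusted p under 0.05 there were 0, 1 and 1, a threshold for which the share of all genes is not given here.

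ETFA is a subunit of the flavoprotein that passes electrons from the dehydrogenases to the respiratory chain. It gave 11.23 and 11.37 with NCFM cells, 11.30 and 11.42 with B. lactis 420 cells and 11.21 and 11.31 with Ls-33 cells, against 11.73 and 11.65 in 8 h medium. No array of a live strain reached the medium arrays, and ETFA fell by 0.39, 0.33 and 0.43 (SE 0.06 each, limma adjusted p 8.68e-05, 0.000513 and 2.63e-05). The other subunit, ETFB, fell with Ls-33 cells (-0.31, 0.00325), and ETFDH, the oxidoreductase that accepts these electrons, was not called.

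In peroxisomes, ACOT8 is an acyl-CoA thioesterase. Its signal was 6.06 and 6.03 with NCFM cells, 6.03 and 5.99 with B. lactis 420 cells and 5.68 and 5.91 with Ls-33 cells, against 6.57 and 6.54 in 8 h medium. This probe set was lower in every co-culture array (-0.51 ± 0.16, -0.54 and -0.76, limma adjusted p 0.0197, 0.0127 and 0.000913), but the second ACOT8 probe set was called higher with each strain (0.69, 0.57 and 0.61), so no direction can be given for the gene. The NCFM call of the first also ended on leaving out any 1 of its 4 arrays (0.0544 to 0.0793), and the B. lactis 420 call without the first or second medium array (0.0606 and 0.051) or the second B. lactis 420 array (0.0649). HSD17B4, the multifunctional enzyme of peroxisomes, fell with NCFM and B. lactis 420 cells (-0.25 and -0.19, adjusted p 0.00189 and 0.0123). EHHADH, the bifunctional hydratase and dehydrogenase, was 7.49 and 7.75 with NCFM cells, 6.97 and 6.90 with B. lactis 420 cells and 7.48 and 7.10 with Ls-33 cells, against 7.38 and 7.30 in 8 h medium. NCFM lay above the medium and B. lactis 420 below it, and the B. lactis 420 call (-0.41 ± 0.14, adjusted p 0.0288) ended on leaving out any 1 of its 4 arrays (0.0675 to 0.13). ACAA1, DECR2 and PEX11A were not called.

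The live strains differed from one another in 8 of the 32 members, by limma's moderated F-test over the 3 co-cultures, against 13.7% of all genes tested. The 8 were CREB3L3, EHHADH, ACSL4, ACADVL, CPT1A, CPT2, PLIN2 and ECHS1, and the count was 4 without either Ls-33 array. The EHHADH result ended without the second NCFM array (adjusted p 0.05) and the ACSL4 result without either Ls-33 array (0.0941 and 0.0536), without a variance trend (0.0653) and with the mean of the ACSL4 probe sets (range 0.23, adjusted p 0.38). In pairs, 7 members differed between Ls-33 and NCFM cells (4 higher and 3 lower with Ls-33, background 14.7%, of which 8.13% higher and 6.55% lower), 5 between Ls-33 and B. lactis 420 cells (4 higher and 1 lower, background 5.58%, of which 2.88% and 2.7%) and 3 between B. lactis 420 and NCFM cells (2 higher and 1 lower, background 3.03%, of which 2.28% and 0.759%). CREB3L3 was higher with Ls-33 than with NCFM cells by 1.06 ± 0.14 (95% interval 0.76 to 1.36, adjusted p 4.18e-05) and higher with B. lactis 420 than with NCFM cells by 0.93 ± 0.14 (0.000533). PLIN2 was ordered Ls-33, B. lactis 420, NCFM from high to low, with each neighbour passing the test (0.20, adjusted p 0.016, and 0.18, 0.0368). This order is that of 1 probe set, and the second, given above, read highest with NCFM cells, without a call against medium. CPT1A was higher with Ls-33 than with NCFM cells (0.52, 4.61e-05) and than with B. lactis 420 cells (0.31, 0.0155). CPT2 was higher with Ls-33 than with B. lactis 420 cells (0.45, 0.0337), ACADVL lower with Ls-33 than with NCFM cells (-0.54, 0.0137), and EHHADH lower with B. lactis 420 than with NCFM cells (-0.68, 0.00747). After quantile normalization of the 20 arrays together the split was 4 higher and 6 lower between Ls-33 and NCFM cells (all genes 782 and 1120, against 965 and 777 as deposited) and 1 and 1 between B. lactis 420 and NCFM cells (202 and 170, against 270 and 90). Pair counts rested on single arrays. Between Ls-33 and NCFM cells the count was 4 without the first NCFM array and 3 without the first Ls-33 array. Between Ls-33 and B. lactis 420 cells it was 0 without the second Ls-33 array and 1 without any other array of the pair, and between B. lactis 420 and NCFM cells 1 without the second array of either.

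With the probiotic supernatants, members were called in both directions. PLIN2, on the probe set read for it, was higher than in 8 h medium with each. Of 32 tested, 2 were higher and 3 lower with NCFM supernatant (background 5.28% and 5.98%), 4 and 4 with B. lactis 420 supernatant (5.98% and 9.2%), and 4 and 4 with Ls-33 supernatant (8.48% and 8.14%). In either direction 11.3%, 15.2% and 16.6% of all genes tested were called. PLIN2 and ACADSB were called higher and ACADVL, ECHS1 and ACOT8 lower with all 3, against the same medium arrays. The counts rested on single arrays. With NCFM supernatant 5 became 3 without the first medium array, 2 without the second and 1 without the first supernatant array. With B. lactis 420 supernatant 8 became 3 without the second medium array or the second supernatant array, and with Ls-33 supernatant it became 5 or 3 without the first or second medium array and 5 or 4 without the first or second supernatant array.

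PLIN2 read 12.15 and 12.19 with NCFM supernatant, 12.15 and 12.09 with B. lactis 420 supernatant and 12.16 and 12.11 with Ls-33 supernatant, against 11.68 and 11.70 in 8 h medium. The 6 supernatant arrays lay close together and all above the medium. PLIN2 rose by 0.48, 0.43 and 0.45 (SE 0.05 each, limma adjusted p 1.61e-06, 5.29e-06 and 2.29e-06), or 1.40-fold, 1.35-fold and 1.36-fold. The mean of both probe sets kept the NCFM call (0.42, adjusted p 0.023) and ended those of B. lactis 420 (0.25, 0.128) and Ls-33 (0.31, 0.0645). CREB3L3 was 7.65 and 7.99 with NCFM supernatant, 7.75 and 7.77 with B. lactis 420 supernatant and 7.53 and 7.78 with Ls-33 supernatant, against 7.66 and 7.90 in 8 h medium. These groups overlapped (changes 0.04, -0.02 and -0.12, none called). ANGPTL4 was 3.18 and 3.08 with NCFM supernatant, 3.34 and 3.25 with B. lactis 420 supernatant and 3.27 and 3.10 with Ls-33 supernatant, against 2.99 and 3.23 in 8 h medium, with no call. PDK4, under the floor, was 2.77 and 2.70 with NCFM supernatant, 2.53 and 2.71 with B. lactis 420 supernatant and 2.53 and 2.64 with Ls-33 supernatant, against 2.58 and 2.56 in 8 h medium.

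At the entry step, CPT2 was 7.98 and 7.83 with NCFM supernatant, 7.93 and 8.01 with B. lactis 420 supernatant and 8.15 and 8.10 with Ls-33 supernatant, against 7.75 and 7.39 in 8 h medium. All were above the medium, whose own arrays were wide apart. CPT2 rose with B. lactis 420 (0.40 ± 0.12, limma adjusted p 0.0305) and Ls-33 supernatant (0.55, 0.00379), with 0.33 (0.0848) for NCFM. Both calls ended without the second medium array (0.343 and 0.0902), the B. lactis 420 call also without its first or second array (0.073 and 0.169), and the other CPT2 probe set read -0.58, -0.45 and -0.15 without a call. ACSL4 was 8.46 and 8.38 with NCFM supernatant, 8.60 and 8.65 with B. lactis 420 supernatant and 8.44 and 8.64 with Ls-33 supernatant, against 8.15 and 8.07 in 8 h medium. It was called higher with B. lactis 420 (0.51, adjusted p 0.0119) and Ls-33 (0.43, 0.0303), and these calls ended without the second medium array (0.0916 and 0.161) or the second supernatant array (0.0843 and 0.26), and that of Ls-33 also without the first medium array (0.079). Both also ended without a variance trend (0.0635 and 0.104) and with the mean of the ACSL4 probe sets (0.21 and 0.11, adjusted p 0.299 and 0.626). CPT1A was 9.58 and 9.57 with NCFM supernatant, 9.45 and 9.50 with B. lactis 420 supernatant and 9.55 and 9.49 with Ls-33 supernatant, against 9.43 and 9.38 in 8 h medium. Each array was above the medium, yet no change passed (0.17, 0.07 and 0.11).

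The dehydrogenases split. ACADSB, which acts on short branched chains from isoleucine, was 6.74 and 6.63 with NCFM supernatant, 6.55 and 6.83 with B. lactis 420 supernatant and 6.57 and 6.71 with Ls-33 supernatant, against 6.15 and 6.21 in 8 h medium. It was higher in every array (0.50 ± 0.14, 0.51 and 0.46, limma adjusted p 0.0234, 0.0174 and 0.0277). The calls with NCFM and Ls-33 ended on leaving out any 1 of their 4 arrays (0.0561 to 0.164, and 0.0598 to 0.208), and that with B. lactis 420 without the first or second medium array (0.0905 and 0.0637) or its second array (0.189). ACADVL was 7.78 and 8.27 with NCFM supernatant, 8.14 and 7.80 with B. lactis 420 supernatant and 8.05 and 7.70 with Ls-33 supernatant, against 8.50 and 8.44 in 8 h medium. All arrays were below the medium, with wide pairs. The changes were -0.45 ± 0.14, -0.50 and -0.60 (adjusted p 0.049, 0.0222 and 0.00652). The NCFM call ended in 9 of 12 alternatives, among them without the first or second medium array (0.179 and 0.142) or the first supernatant array (0.525). The B. lactis 420 call ended without the first or second medium array (0.107 and 0.0865) or its second array (0.253), and the Ls-33 call without its second array (0.138). ACADM was 9.90 and 9.72 with NCFM supernatant, 9.84 and 9.92 with B. lactis 420 supernatant and 9.95 and 9.95 with Ls-33 supernatant, against 9.67 and 9.69 in 8 h medium, above the medium in each array and not called.

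ECHS1 was 10.51 and 10.61 with NCFM supernatant, 10.50 and 10.52 with B. lactis 420 supernatant and 10.57 and 10.52 with Ls-33 supernatant, against 10.87 and 10.82 in 8 h medium. The groups stood apart, and ECHS1 fell by 0.28, 0.33 and 0.30 (SE 0.05 each, limma adjusted p 0.00229, 0.000502 and 0.000986), the NCFM call ending without the first supernatant array (0.0533). ACAA2 fell with B. lactis 420 and Ls-33 supernatant (-0.36 and -0.37, 0.00965 and 0.00658). HADHA was 10.40 and 10.43 with NCFM supernatant, 10.43 and 10.47 with B. lactis 420 supernatant and 10.40 and 10.44 with Ls-33 supernatant, against 10.49 and 10.56 in 8 h medium, below it in each array and not called. ACOT8 was 5.72 and 6.19 with NCFM supernatant, 5.78 and 5.85 with B. lactis 420 supernatant and 5.92 and 5.93 with Ls-33 supernatant, against 6.57 and 6.54 in 8 h medium. It was lower on this probe set (-0.60 ± 0.16, -0.74 and -0.63, adjusted p 0.0213, 0.00455 and 0.0113), while the second read 0.58, 0.49 and 0.42 without a call and the mean of both ended all 3 calls (-0.01, -0.12 and -0.10). The NCFM call also ended without the first or second medium array (0.0951 and 0.0914) or the first supernatant array (0.291), and the Ls-33 call on leaving out any 1 of its 4 arrays (0.057 to 0.0742). Among the 3 supernatants the F-test called 0 of 32 members, against 0.0337% of all genes tested. At an unadjusted p under 0.05 there were also 0 members, and the share of all genes at that threshold is not given here.

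The difference between live cells and supernatant of the same strain was tested directly, with time (8 h against 24 h) differing too. Of 32 members, 4 were higher and 10 lower in co-culture for NCFM (background 18.6% and 18.3%), 3 and 13 for B. lactis 420 (22.2% and 15.7%), and 2 and 8 for Ls-33 (16.6% and 16.3%), the last total of 10 becoming 6 without the second Ls-33 co-culture array. For each strain PLIN2, CREB3L3, CPT2, CRAT and ETFA were lower in co-culture and ACADVL was higher. On the probe set read for it, PLIN2 differed by -0.97, -0.74 and -0.56 for NCFM, B. lactis 420 and Ls-33 (SE 0.05 each, limma adjusted p 3.06e-12, 2.06e-10 and 1.37e-08). The second PLIN2 probe set read above 8 h medium with live cells, without a call, and its difference between formats is not given here. CREB3L3 differed by -1.79, -0.80 and -0.56 (SE 0.14 each, 1.01e-08, 0.0002 and 0.00507), and CPT2 by -0.73, -1.16 and -0.86 (SE 0.12 each, 8.73e-05, 3.33e-07 and 1.68e-05). ACADVL was higher in co-culture by 0.94, 0.84 and 0.56 (SE 0.14 each, 3.31e-05, 0.000108 and 0.00488). CPT1A was lower in co-culture for NCFM (-0.28, 0.00495) and higher for Ls-33 (0.31, 0.00242).

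**Figure D4:**
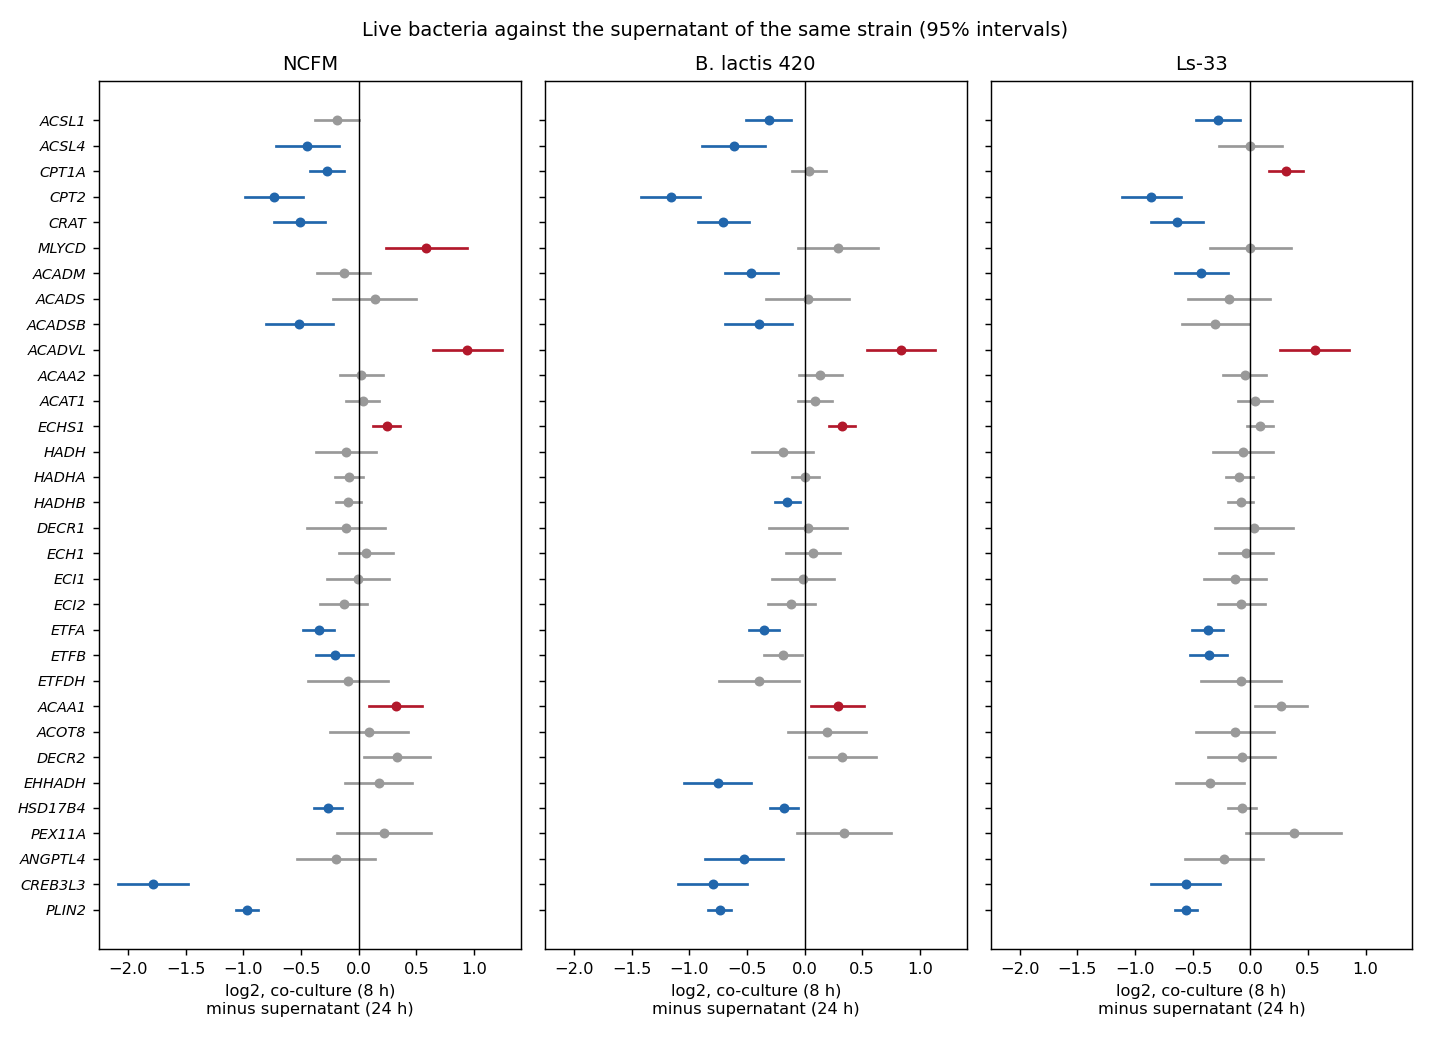
Co-culture minus supernatant of the same strain, as log2 difference with 95% intervals, by member and strain. PLIN2, CREB3L3, CPT2, CRAT and ETFA lie below 0 and ACADVL above 0 for each strain, with PLIN2 at -0.97, -0.74 and -0.56 on the probe set read for it.

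With E. coli O157:H7 supernatant, most of the members tested were lower than in 24 h medium, while ETFB and ACSL1 were higher. The fall did not reach every step, and CPT1A, ACADSB, ACAT1 and ETFA were among the members not called. Of 33 members tested, 20 were lower and 4 higher, against 27.8% lower and 36.3% higher among all genes tested (64.1% called in all). The 4 include PDK4, which was tested only because of its signal in the E. coli arrays, and PLIN2, whose direction depends on the probe set. The members' median log2 change was -0.36, against 0.05 for all genes, and 26 of 33 were below 0. Leaving out each array in turn gave 21 to 25 called members.

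**Figure D5:**
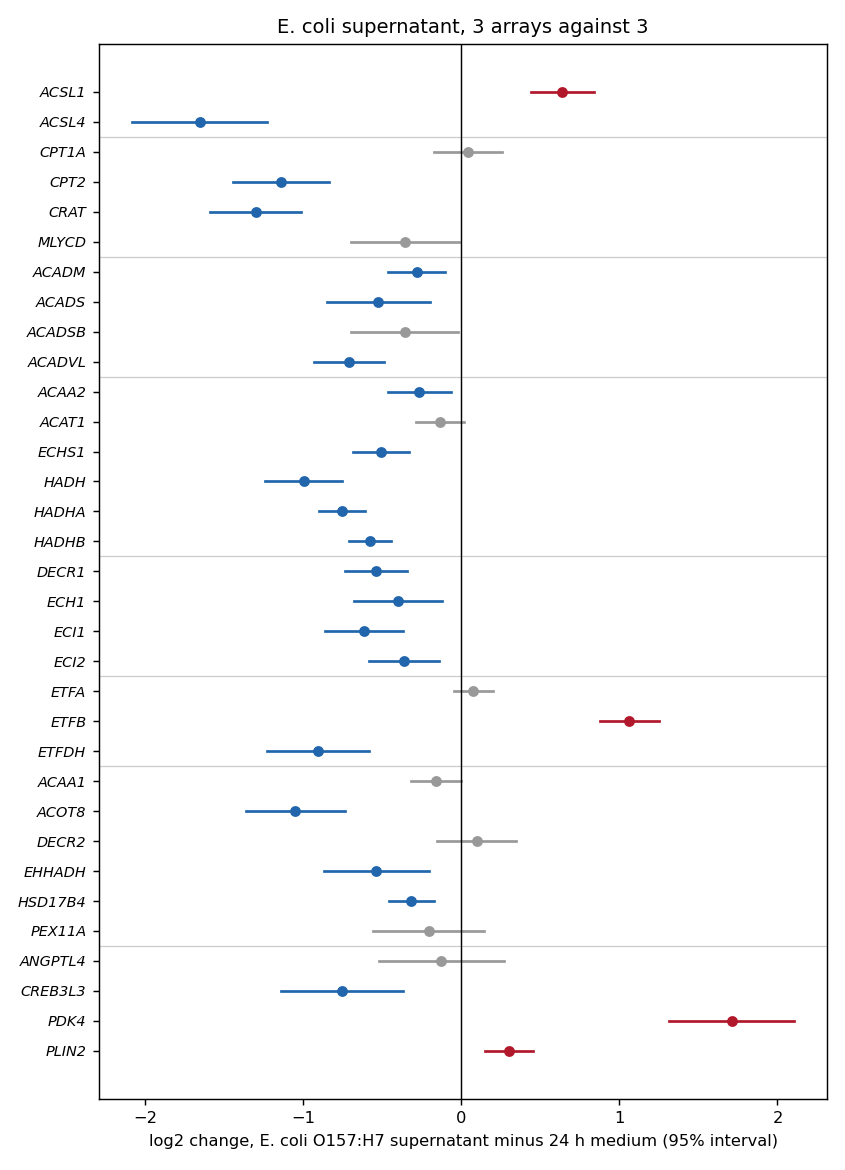
Log2 change (point) and 95% interval (bar) of each member with E. coli supernatant against 24 h medium, grouped by role; blue is called lower, red called higher and grey not called. PDK4, tested only because of its signal in the E. coli arrays, lies above 0 with ETFB (1.06), and ACSL4 (-1.66) and CRAT (-1.30) farthest below.

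In activation and entry, ACSL4 was 7.38, 7.20 and 7.13 with E. coli supernatant, against 8.40, 9.41 and 8.87 in 24 h medium. The groups were apart although the medium arrays spread widely, and ACSL4 fell by 1.66 ± 0.20 (limma adjusted p 1.32e-05), with its other probe sets at -1.15 and -1.09. ACSL1, the main long-chain synthetase of oxidative tissues, rose (0.64 ± 0.09, 5.77e-05). CPT1A was 8.45, 8.54 and 8.52 with E. coli supernatant, against 8.59, 8.27 and 8.51 in 24 h medium. These overlapped and gave 0.04 ± 0.10 (0.715). CPT2 was 6.77, 7.25 and 6.85 with E. coli supernatant, against 8.01, 8.01 and 8.28 in 24 h medium, and CRAT was 7.57, 7.10 and 7.52, against 8.66, 8.85 and 8.58. Neither gene's groups overlapped, and CPT2 fell by 1.14 ± 0.14 (1.68e-05) and CRAT by 1.30 ± 0.13 (3.58e-06), or 2.20-fold and 2.46-fold.

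Of 4 dehydrogenases tested, 3 fell and ACADSB did not pass (-0.36, limma adjusted p 0.0606). ACADVL and ACADS changed by -0.71 (5.75e-05) and -0.53 (0.00873). ACADM was 9.55, 9.45 and 9.59 with E. coli supernatant, against 9.67, 9.96 and 9.82 in 24 h medium, apart by little (-0.28 ± 0.08, 0.0103), and its call ended without the second E. coli array (0.0509). In the rest of the round 5 of 6 fell and ACAT1 did not pass (-0.14, 0.112). HADHA was 9.38, 9.34 and 9.38 with E. coli supernatant, against 10.11, 10.06 and 10.19 in 24 h medium, with tight groups far apart (-0.76 ± 0.07, 1.04e-06). HADH, the dehydrogenase for medium and short chains, was 7.74, 7.64 and 7.40 with E. coli supernatant, against 8.50, 8.72 and 8.56 in 24 h medium, also lower in each array (7.39e-06). HADHB changed by -0.58 (4.99e-06), ECHS1 by -0.51 (0.00016) and ACAA2 by -0.27 (0.0221). All 4 auxiliary enzymes fell. ECI1 and ECI2 are isomerases, ECH1 is a further isomerase and DECR1 is the dienoyl-CoA reductase, and they changed by -0.62, -0.36, -0.40 and -0.54 (0.000451, 0.00749, 0.0155 and 0.000236).

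The electron carriers divided. ETFB was 10.36, 10.66 and 10.49 with E. coli supernatant, against 9.55, 9.34 and 9.43 in 24 h medium, with no overlap (1.06 ± 0.08, limma adjusted p 4.86e-07, 2.09-fold higher). Its partner subunit ETFA did not pass (0.07, 0.265), and ETFDH fell (-0.91, 0.000191). In peroxisomes, EHHADH and HSD17B4 fell (-0.54 and -0.32, 0.0083 and 0.00104). ACOT8 was 4.66, 4.89 and 4.72 with E. coli supernatant, against 5.92, 5.69 and 5.81 in 24 h medium. This probe set fell by 1.05 ± 0.14 (4.43e-05), the second was called higher by 0.58, and their mean was not called (-0.24, 0.0646). ACAA1, DECR2 and PEX11A were not called.

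Among the other PPAR-regulated members, PDK4 was 4.35, 3.77 and 4.44 with E. coli supernatant, against 2.30, 2.52 and 2.61 in 24 h medium. The group means were 4.19 with E. coli supernatant and 2.48 in 24 h medium. The medium arrays were all under the floor, so PDK4 entered the test through the E. coli arrays alone, and no test is read from it. CREB3L3 was 5.16, 5.56 and 5.90 with E. coli supernatant, against 6.30, 6.24 and 6.34 in 24 h medium, lower in each array and spread more widely (-0.76 ± 0.18, limma adjusted p 0.00261). PLIN2 was 11.91, 11.94 and 11.98 with E. coli supernatant, against 11.79, 11.47 and 11.67 in 24 h medium. Its arrays were above the medium (0.30 ± 0.07, 0.00255), but the second probe set was called lower (-1.04) and the mean of both was lower too (-0.37, 0.0154), so the direction depends on the probe set. ANGPTL4 was 3.01, 2.85 and 3.47 with E. coli supernatant, against 3.51, 3.06 and 3.14 in 24 h medium, overlapping and not called (-0.13, 0.561), although another ANGPTL4 probe set was called higher (0.53).

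Genes outside the members but of the same pathway were counted in 6 lists. Of 9 PPAR receptors, partners and coactivators tested in the probiotic set, 4, 4 and 5 were lower and 0, 0 and 1 higher with NCFM, B. lactis 420 and Ls-33 cells, against 18.4%, 16.9% and 19.3% lower and 16.8%, 18.3% and 19.4% higher among all genes tested. PPARA, which encodes PPARα, was 6.47 and 6.03 with NCFM cells, 6.19 and 6.52 with B. lactis 420 cells and 6.29 and 6.33 with Ls-33 cells, against 8.10 and 8.21 in 8 h medium. The groups lay far apart, and PPARA fell by 1.90, 1.80 and 1.84 on the log2 scale. Of its 8 probe sets, 6, 7 and 5 were called lower with these strains, 8 with E. coli supernatant and 0 with the probiotic supernatants, and limma called 0 higher. PPARG fell with each live strain (-0.50, -0.51 and -0.44, adjusted p 0.000422, 0.000331 and 0.00105), and so did RXRA, the retinoid X receptor partner (-0.56, -0.48 and -0.99), its B. lactis 420 call ending without the second B. lactis 420 array (0.0595). With the supernatants 0, 1 and 1 of these 9 genes were higher and 1, 1 and 0 lower, against 5.28%, 5.98% and 8.48% higher and 5.98%, 9.2% and 8.14% lower among all genes tested.

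With E. coli supernatant 5 of 10 genes of this list were lower and 2 higher, against 27.8% and 36.3% of all genes tested. PPARA was 5.64, 5.30 and 5.28, against 7.88, 7.84 and 7.88 in 24 h medium, a change of -2.46. PPARGC1A, the coactivator that drives oxidative genes, was 6.17, 6.80 and 6.81, against 2.00, 1.87 and 2.20 in 24 h medium, which is under the floor. The group means were 6.59 with E. coli supernatant and 2.02 in 24 h medium, and PPARGC1A, 1 of the 2 counted as higher, entered the test through the E. coli arrays alone, so no test is read from it. RXRA fell (-0.94, limma adjusted p 3.62e-05).

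Of 11 other PPAR-responsive genes tested, 4, 3 and 3 were lower and 1, 1 and 3 higher with the live strains, 0, 1 and 0 lower and 2, 3 and 2 higher with their supernatants, and 4 of 9 lower and 2 higher with E. coli supernatant. Among all genes tested, 16.9% to 19.3% were lower and 16.8% to 19.4% higher with the live strains, 5.98% to 9.2% and 5.28% to 8.48% with their supernatants, and 27.8% and 36.3% with E. coli supernatant. Counts this small are given as a description of the list, and nothing is read from them where they lie near these shares. CIDEC, a lipid droplet protein like PLIN2, was 7.11 and 6.86 with NCFM cells, 7.38 and 7.16 with B. lactis 420 cells and 7.05 and 7.19 with Ls-33 cells, against 9.28 and 9.07 in 8 h medium. All were far below the medium (-2.19, -1.91 and -2.06, limma adjusted p 4.29e-11, 2.96e-10 and 6.6e-11). CIDEC was called higher with E. coli supernatant (0.52, adjusted p 0.00118) and with NCFM and B. lactis 420 supernatants (0.42 and 0.36, 0.0288 and 0.0488). The call with NCFM supernatant ended in 5 of 12 alternatives, 3 of them leaving out 1 array. That with B. lactis 420 supernatant ended in 9 of 12, 4 of them leaving out 1 array. Both ended without a variance trend (limma adjusted p 0.105 and 0.129), and without the second medium array the changes were 0.32 and 0.26. FABP1, the fatty acid binding protein of enterocytes and liver, fell with each live strain (-0.36, -0.32 and -0.37) and with E. coli supernatant (-1.04, 8.45e-09). UCP2, of the same list, rose with each live strain (0.37, 0.26 and 0.32). Its NCFM call ended with the mean of its probe sets (0.18, limma adjusted p 0.0663). VNN1, a pantetheinase and PPARα target, was 3.19 and 3.22 with NCFM cells, 3.85 and 3.93 with B. lactis 420 cells and 5.00 and 4.88 with Ls-33 cells, against 4.24 and 4.20 in 8 h medium. It was lower with NCFM and higher with Ls-33 cells (-1.01, 0.000145, and 0.72, 0.00269), and the strains differed by the F-test (3.56e-06). The second VNN1 probe set read -0.18, -0.01 and 0.11 with the live strains, none called (adjusted p 0.507, 0.978 and 0.705), so these calls rest on 1 probe set. The Ls-33 and F-test values of VNN1 were chosen after they were seen. With E. coli supernatant VNN1 rose (0.57, limma adjusted p 0.0029), and its second probe set read 0.58. VNN1 also rose with B. lactis 420 and Ls-33 supernatants (1.16 and 1.28), where the second probe set read 0.08 and 0.43 without a call. HILPDA, a further lipid droplet protein, rose with the probiotic supernatants (0.37, 0.32 and 0.56) and fell with E. coli supernatant (-0.82, limma adjusted p 2.72e-06), but the NCFM call ended without its first array (0.0759) and the B. lactis 420 call without the first or second medium array (0.0578 and 0.0757) or its second array (0.131).

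Of 13 other acyl-CoA enzymes tested, 3, 3 and 5 were lower and 2, 5 and 1 higher with the live strains, 0, 1 and 1 lower and 1, 1 and 1 higher with their supernatants, and 10 of 14 lower and 1 higher with E. coli supernatant. The shares of all genes tested were 16.9% to 19.3% lower and 16.8% to 19.4% higher with live strains, 5.98% to 9.2% and 5.28% to 8.48% with supernatants of the probiotics, and 27.8% and 36.3% with that of E. coli. ACSL5, the acyl-CoA synthetase abundant in intestine, was 8.79 and 8.66 with NCFM cells, 9.02 and 8.71 with B. lactis 420 cells and 9.13 and 9.14 with Ls-33 cells, against 10.18 and 10.08 in 8 h medium. With the probiotic supernatants it was 10.62 and 10.69, 10.83 and 10.84, and 10.72 and 10.56 in the same order, so it lay below the medium with live bacteria and above it with probiotic supernatants. The changes were -1.41 and -1.27 with NCFM and B. lactis 420 cells and 0.52, 0.70 and 0.50 with probiotic supernatants, and Ls-33 cells gave an adjusted p of 1.93e-08 in limma (the others 0.000585 or lower). With E. coli supernatant ACSL5 was lower than in 24 h medium (-0.46, adjusted p 0.000133), with its second probe set at -1.30. ACSM3, a medium-chain acyl-CoA synthetase, fell with each live strain (-0.70, -0.74 and -0.78) and with E. coli supernatant (-2.88). ACOT9, of the same list, rose with B. lactis 420 and Ls-33 cells (0.68 and 0.62, limma adjusted p 0.000279 and 0.000583). It also rose with E. coli supernatant (1.12, 1.24e-05).

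Of 10 other peroxisomal oxidation genes tested, 2, 4 and 4 were lower and 2, 1 and 1 higher with the live strains, 1, 0 and 2 lower and 1, 1 and 1 higher with their supernatants, and 6 of 11 lower and 1 higher with E. coli supernatant. For this list, the ketone body genes and the malonyl-CoA genes below, all genes tested gave 16.9% to 19.3% lower and 16.8% to 19.4% higher with live strains, 5.98% to 9.2% and 5.28% to 8.48% with probiotic supernatants and 27.8% and 36.3% with E. coli supernatant. ACOX2, the branched-chain acyl-CoA oxidase, fell with each live strain (-0.90, -0.72 and -0.93) and with E. coli supernatant (-1.34), and so did PECR, the trans-enoyl-CoA reductase of peroxisomes (-1.09, -1.15 and -1.38, and -0.87). The second PECR probe set read 0.24, -0.14 and 0.0026 with the live strains, with no call, and -0.99 with E. coli supernatant. ABCD3 was called higher with NCFM and B. lactis 420 cells (0.34 and 0.17). The mean of its probe sets was called lower there (-0.32 and -0.20, limma adjusted p 0.00213 and 0.0296), so its direction depends on the probe set. Of 3 ketone body genes tested, 1 rose and 1 fell with each live strain, 1 rose and 0 fell with each supernatant, and 1 rose and 2 fell with E. coli supernatant. OXCT1, which uses ketone bodies, was the one called higher (1.04, 0.85 and 0.67 with live bacteria, 0.88, 0.77 and 0.64 with their supernatants and 1.35 with E. coli supernatant). The live Ls-33 call ended without the second Ls-33 array (0.138). The supernatant calls ended without the second NCFM array (0.106), and on leaving out any 1 of 4 arrays for B. lactis 420 (0.0582 to 0.0664) and Ls-33 (0.0787 to 0.195). Of 8 genes of malonyl-CoA and AMPK control, which set the brake on CPT1A, 0, 0 and 1 were higher and 0 lower in limma with the live strains, and 3 higher and 2 lower with E. coli supernatant. With the supernatants 0, 1 and 0 were higher and 0, 1 and 1 lower. At an unadjusted p under 0.05 there were 0, 0 and 3 with the live strains and 2, 3 and 3 with the supernatants. The share of all genes at that unadjusted threshold is not given here. PRKAB1, a regulatory subunit of AMPK, rose 2.83-fold with E. coli supernatant (adjusted p 1.84e-05).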

How the data were processed

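RNA of 20 Caco-2 samples was measured on 1-colour human Affymetrix expression arrays. The deposited values are log2 signals. The submitters' processing notes name RMA, with no version, and whether the 20 arrays were normalized together is not given in the sources used here. They were used as deposited. Probe sets were named from the platform annotation given with the data: 41091 had 1 symbol, 1801 several (not named), 11721 none and 62 were controls. Each gene was read from the probe set of highest mean over the 20 arrays, with _x_at sets left out where others existed. A gene entered a fit if its average there was at or above the 40th percentile of named genes, and was tested with limma 3.58.1 in R 4.3.3 (lmFit, eBayes with trend), with Benjamini-Hochberg adjustment over all genes tested and calls at adjusted p under 0.05. The probiotic set (14 arrays, 7 groups) and the E. coli set (6 arrays, 2 groups) were fitted apart, since their starting RNA differed (5 and 1 µg). The scripts were tested on simulated data. The small number of arrays limits the precision.

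The members and the other lists were chosen with earlier results of these data known. All members are described, and array values are given for up to 6 called members per comparison with a medium (largest change, treated arrays on 1 side of the medium), for the 3 members with the widest spread among those an F-test called, and for PDK4, ANGPTL4, PLIN2, CPT1A, ACADM, HADHA and CREB3L3. Of the other lists, up to 4 called genes per comparison with the lowest adjusted p could be named. Alternatives were other filters, no trend, joint quantile normalization, every probe set or their mean, other arrays in the fit, a replicate block, and leaving out each array. Same-numbered arrays did not deviate together (correlations -0.139 to 0.0351 over 3 E. coli set pairs and -0.106 to 0.0579 over 21 pairs of probiotic groups), and the main fits did not pair them. With so few arrays per group, these correlations cannot show whether same-numbered samples were handled together.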

Additional observations from a re-analysis of the deposited data

Results flagged for a closer look

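The means of the 3 live co-cultures differed from one another in 8 members by limma's moderated F-test over all genes, given here as the range of the 3 group means in log2 units (2 arrays per group). CREB3L3 had a range of 1.06 (adjusted p 6.28e-05), EHHADH 0.68 (0.00714), ACSL4 0.57 (0.00746), ACADVL 0.54 (0.0331), CPT1A 0.52 (0.000171), CPT2 0.45 (0.0308), PLIN2 0.38 (4.81e-05) and ECHS1 0.21 (0.0271). NCFM cells had the lowest mean for CREB3L3, PLIN2, CPT1A and ACSL4, and the highest for ACADVL and EHHADH. For PLIN2 this holds on the probe set read and not on the second.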

How the results depend on the processing

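Of 52 calls of members with array values given, 19 held under every alternative and 33 were lost or turned under at least 1. The 52 and the 19 include PDK4 with E. coli supernatant, from which no test is read. The lost calls were mostly small changes in groups of 2 arrays, and the cause of each loss was not tested. Averaging all probe sets of a gene turned 5 values of members: ACOT8 with NCFM cells (0.0903, adjusted p 0.532) and with B. lactis 420 cells (0.0107, 0.951), PLIN2 with B. lactis 420 cells (0.0125, 0.941) and with E. coli supernatant (-0.37, 0.0154), and CPT2 with B. lactis 420 supernatant (-0.0231, 0.922). It also moved the called members to 3 with B. lactis 420 supernatant and 5 with Ls-33 supernatant (8 each), 5 in the F-test among live strains (8), 4 between Ls-33 and NCFM cells (7) and 3 between Ls-33 and B. lactis 420 cells (5). Without a variance trend the F-test called 5, Ls-33 against B. lactis 420 cells 0, and B. lactis 420 against NCFM cells 1 (3), which was also 1 with only those arrays in the fit. With no filter Ls-33 against B. lactis 420 cells gave 3.

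Leaving out 1 array gave 6 to 9 called members with NCFM cells, 7 to 9 with B. lactis 420 cells, 11 to 12 with Ls-33 cells, 1 to 4, 3 to 7 and 3 to 5 with their supernatants in the same order, and 21 to 25 with E. coli supernatant. It gave 4 to 9 in the F-test among live strains and 0 in that among supernatants, 3 to 8 for Ls-33 against NCFM, 0 to 1 for Ls-33 against B. lactis 420 and 1 to 4 for B. lactis 420 against NCFM cells, and 10 to 13, 11 to 14 and 6 to 11 for co-culture against supernatant of NCFM, B. lactis 420 and Ls-33. The replicate block changed the count of called members with NCFM supernatant to 4 (5), for Ls-33 against NCFM cells to 6 (7) and for B. lactis 420 co-culture against supernatant to 15 (16), and left the other counts as they were. Of 107 named calls of the other gene lists, 36 were lost on leaving out 1 array. The 107 include PPARGC1A with E. coli supernatant, from which no test is read. The floor is a percentile of the named genes, and no measure of background was used.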
